A study of Homo sapiens with 4 samples.

Results

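The loci of the 3 RUNX transcription factor genes were examined in a map of chromatin binding by CEBPB, a basic leucine zipper factor of the C/EBP family. The cells were NCM460, a human colon epithelial line, grown in serum-containing medium with no treatment named in the labels. There were 2 samples immunoprecipitated with an antibody to CEBPB and 2 input samples of sheared chromatin without immunoprecipitation, all from the same line in the same culture condition, and each pair is described as independent experiments. A line in 1 condition gives no contrast between states, so the values below describe where and how strongly CEBPB was enriched. In such a bulk assay, more cells with a bound site and stronger binding per cell cannot be told apart.

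Members were chosen by position in the hg19 build. A peak summit (the base of highest signal in a peak) or a reproducible region belonged to a locus when it lay on chromosome 21 between 36.15 and 37.0 Mb for RUNX1, on chromosome 6 between 45.2 and 45.6 Mb for RUNX2, or on chromosome 1 between 25.15 and 25.4 Mb for RUNX3. Bands 21q22.12, 6p21.1 and 1p36.11 hold these windows, which span 1.5 Mb together. They held 74 of 80530 summits of replicate 1 and 84 of 104307 summits of replicate 2 on chromosomes 1 to 22 and X. They also held 30 of 25602 reproducible regions, which are the distinct regions of a table deposited by the authors that lists peaks found in both replicates with their irreproducible discovery rate (IDR), a measure of how well the ranks of the replicates match, at a global IDR of at most 0.05. Of these 30 regions, 24 lay in the RUNX1 window, 4 in the RUNX2 window and 2 in the RUNX3 window. The RUNX1 window takes in the region with the highest fold enrichment of the whole series, and that region was part of the choice, so the height of that site is given as a description.

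RUNX proteins bind DNA through a conserved Runt domain and do so as heterodimers with CBFB, which itself does not contact DNA. RUNX1 is needed for the formation of blood stem cells and RUNX2 for that of bone, and RUNX3 acts in sensory neurons and lymphocytes and has been studied in the gut epithelium. Each gene has a distal and a proximal promoter. In blood cells, RUNX1 and C/EBP factors are known to act on many of the same enhancers. RUNX1 is transcribed towards lower coordinates on chromosome 21, so that higher coordinates beyond the gene lie upstream of it, and RefSeq lists only non-coding RNA genes and a pseudogene among its 3 nearest neighbours on that side. For RUNX2 it lists the protein-coding SUPT3H as overlapping and CLIC5 among the nearest neighbours above. For RUNX3 it lists the protein-coding CLIC4 among those below. A region in a window is thus not assigned to the RUNX gene that names it. No hg19 annotation was used here, and no region is therefore placed in an exon, an intron or a promoter.

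The promoters of the family that hold the recognition sequence of RUNX proteins themselves are shown. RefSeq (GRCh38.p14, a build whose positions do not match those of hg19) gave 5 promoter entries of 300 bases for the 3 genes. RUNX1 had 1 of these entries, and RUNX2 and RUNX3 had 2 each. The search therefore did not cover both promoters of RUNX1. A RUNX motif, TGTGGT on either strand, was found in 2 of the 5, against 13.1% of 35116 promoter entries of all genes. It appears as ACCACA, in capitals, in the bases from 200 to 51 before the start at the 5′-most entry of RUNX2 (chr6:45328130-45328279, plus strand) and of RUNX3 (chr1:24965061-24965210, minus strand):
RUNX2: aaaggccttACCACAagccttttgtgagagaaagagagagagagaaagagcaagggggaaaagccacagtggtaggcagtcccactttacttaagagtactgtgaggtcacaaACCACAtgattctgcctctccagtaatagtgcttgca
RUNX3: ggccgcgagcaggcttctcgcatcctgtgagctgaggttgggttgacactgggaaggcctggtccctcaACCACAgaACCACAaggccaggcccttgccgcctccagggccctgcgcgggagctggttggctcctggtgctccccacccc
The C/EBP palindrome TTGCGCAA, the recognition sequence of CEBPB itself, was in none of the 5 entries, also with 1 mismatch allowed. Among all promoter entries, 0.151% held it exactly and 5.81% with at most 1 mismatch. These matches describe letters in a window and were not set against any peak.

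CEBPB regions were dense over the RUNX1 window and near the average density of all chromosomes over RUNX2 and RUNX3, with wide intervals. The RUNX1 window held 28.2 reproducible regions per Mb (95% exact Poisson interval 18.1 to 42.0), the RUNX2 window 10.0 (2.72 to 25.6) and the RUNX3 window 8.00 (0.969 to 28.9), against 8.43 over all chromosomes. The RUNX1 value is thus 3.35 times that of all chromosomes, and the RUNX2 and RUNX3 values are 1.19 and 0.949 times it. When chromosomes were cut end to end into 3561 tiles of 0.85 Mb, the width of the RUNX1 window, the median tile held 6 regions and 48 tiles (1.35%) held 24 or more, up to 37. For tiles as wide as the RUNX2 and RUNX3 windows, 39.6% held at least 4 regions and 47.1% at least 2. Intervals cover counting error only, regions cluster, and the loci were chosen with results known, so these ratios carry no test.

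**Figure D1:**
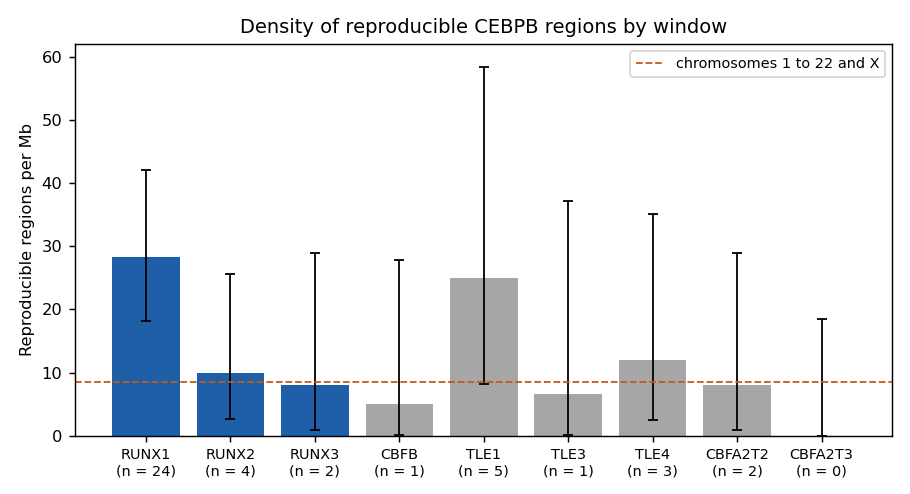
Reproducible CEBPB regions per Mb (y axis) in the windows of the RUNX genes (blue bars) and of 6 genes of RUNX cofactors (grey bars), with the number of regions under each name. Error bars are 95% exact Poisson intervals and the dashed line is the density over chromosomes 1 to 22 and X, 8.43; the RUNX1 bar stands at 28.2.

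The order of the windows was the same in each list. In replicate 1 the RUNX1 window held 53 summits, or 62.4 per Mb, which is 2.35 times the density of that list over all chromosomes. In replicate 2 it held 58 summits, or 68.2 per Mb and 1.99 times. The RUNX2 window had 14 and 18 summits (1.32 and 1.31 times) and the RUNX3 window 7 and 8 (1.06 and 0.931 times). Of the summits in the RUNX1 window, those in the IDR table were 27 of 53 in replicate 1 (50.9%, against 33.0% of all summits) and 27 of 58 in replicate 2 (46.6%, against 25.5%). In the RUNX2 window 4 of 14 and 4 of 18 summits entered it, and in the RUNX3 window 2 of 7 and 2 of 8. At an IDR of at most 0.01, which 60.6% of all reproducible regions met, 14 of the 24 RUNX1 regions, 4 of 4 RUNX2 regions and 1 of 2 RUNX3 regions were left.

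The strongest RUNX1 site lay at chr21:36880635-36881196, upstream of the gene and near the far end of the window. Its fold enrichment, the authors' ratio of ChIP signal to local input background at the summit, was 76.3 in replicate 1 and 75.05 in replicate 2, or 75.7 ± 0.870 (SD, n = 2). The summits of the replicates were 4 bp apart. Behind the fold stood 182 fragments (extended reads piled up at the summit, recovered here from the deposited fold and −log10 p) over a background of 1.22 expected fragments in replicate 1, and 220 fragments over 1.36 in replicate 2. The background in replicate 2 was the lowest in that list, a floor that many summits share. In the RUNX1 window, 13 of 58 summits of replicate 2 had this floor value, so it was not particular to the site. The floor in the list of replicate 1 was 1.00, and the site lay above it. By mean fold the site ranked 1st among the 25602 regions, by the mean −log10 p it ranked 38, and by the sum of fragments it ranked 848. In replicate 1 alone its fold ranked 10, and in replicate 2 alone it ranked 2.

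Its place at the top by fold went with a low background; the part of the background in it was not tested further. In replicate 1, 1002 regions (3.91%) had at least 182 fragments, at a median background of 5, and 3 of them, the site itself included, had a background as low as 1.22. In replicate 2, 780 regions (3.05%) had at least 220 fragments, at the same median background, and the site was the only one of them at 1.36. Over all reproducible regions the median background was 2.17 and 2.68. The nearest reproducible region on either side was 32.7 kb towards the gene, at chr21:36847980-36848467, and the next on the far side was 69.8 kb away. Within 5 kb of the site, replicate 1 had 1 other summit, with a fold of 7.84 and 18 fragments, and replicate 2 had 4 others with folds of 3.50 to 5.40 and 11 to 19 fragments.

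**Figure D2:**
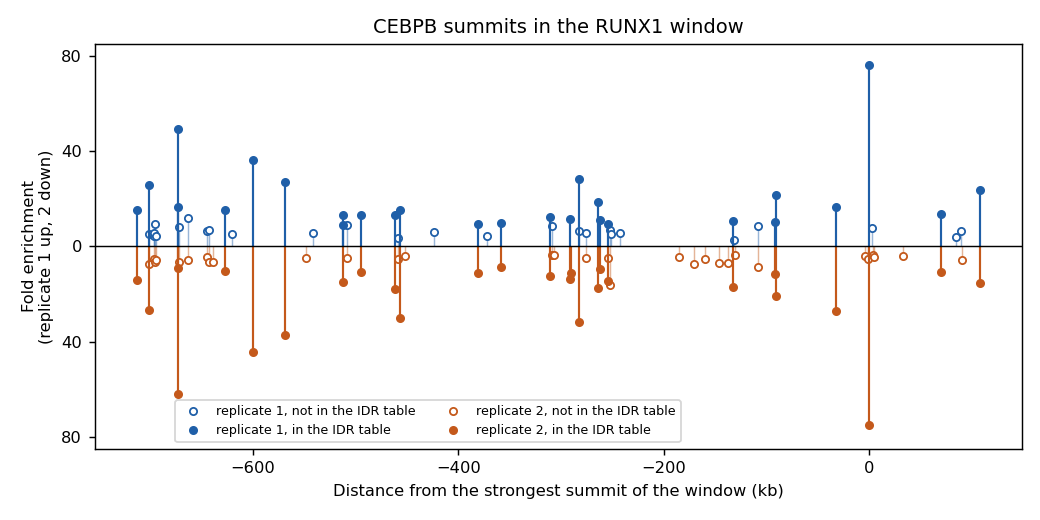
CEBPB summits along the RUNX1 window, by distance in kb from the strongest summit (x axis; positive values are farther upstream), with the authors' fold enrichment on the y axis, replicate 1 upwards and replicate 2 downwards. Filled points are in the IDR table and open points are not; the tallest stems are the upstream site at 0 kb (76.3 and 75.05) and the site at −673 kb on the gene side (49.1 and 62.1).

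The second RUNX1 region by fold, chr21:36207760-36209187, lay at the other end of the window, on the side of the window that carries the gene. It reached 49.1 and 62.1 in replicates 1 and 2, or 55.6 ± 9.21 (SD, n = 2), and ranked 58 of all regions. With 206 and 234 fragments it was taller than the upstream site in both replicates, over backgrounds of 2.91 and 2.03. At 1428 bp it was also the widest member, and 96 regions (0.375%) of the genome were at least as wide. It held a second pair of summits, 595 bp away in replicate 1 and 594 bp in replicate 2, with folds of 16.6 and 9.00 and with 58 and 55 fragments.

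On the same side followed chr21:36280490-36281166 with folds of 36.2 and 44.4 (155 and 193 fragments, rank 706) and chr21:36312048-36312406 with 27.2 and 37.4 (87 and 109 fragments, rank 1995). The region at chr21:36180264-36180652 had 26.0 and 26.6, from 83 and 110 fragments. At chr21:36423614-36424093 the fold was 15.2 in replicate 1 and 30.2 in replicate 2, although its fragments were 114 and 119. The background there was 6 in replicate 1, the highest of any summit in the window, and 2.18 in replicate 2. Its SD of 10.6 over a mean of 22.7 was the widest spread in fold among the RUNX1 regions, whose median SD was 1.76.

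Apart from the strongest site, 4 of the 10 strongest RUNX1 regions lay upstream of the gene. The region at chr21:36597866-36598312 had folds of 28.5 and 31.8 and 71 and 118 fragments. The region nearest to the strongest site, chr21:36847980-36848467, had 16.7 and 27.2 (53 and 79 fragments). A pair of summits lay in chr21:36789214-36789822, the taller with folds of 21.8 and 21.04 and 46 and 104 fragments, and the other 269 bp away in replicate 1 and 217 bp in replicate 2, with 10.2 and 11.6. Last of the 10 strongest was chr21:36988480-36988888, with 23.6 and 15.4 and 50 and 78 fragments. It held the last summit of the window in both lists. At the weak end stood chr21:36522011-36522374 with 9.91 and 8.73 (31 and 25 fragments, IDR 0.0430).

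The window was split into 0.30 Mb around the gene body with both promoters and the 0.55 Mb beyond it, placed by general knowledge of the gene's hg19 position and rounded outward to 50 kb. The gene side held 10 regions, 33.3 per Mb (interval 16.0 to 61.3), and the upstream side 14, 25.5 per Mb (13.9 to 42.7), so that both were above the density of all chromosomes and their intervals overlapped. The median mean fold was 19.1 on the gene side and 13.3 upstream, beside 15.8 over all regions. On the gene side 5 of 10 regions lay above the upper quartile of all regions (22.4) and 0 below the lower quartile (12.0). Upstream, 2 of 14 lay above and 3 below. Over the whole RUNX1 window, 11 of 24 regions exceeded the median of all regions, and the window's median was 15.1. Regions were 494.5 bp wide at the median (421 over all regions) and lay a median of 31.4 kb apart, from 1.35 kb between the closest pair to 121 kb at the widest gap.

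RUNX2 had fewer regions, but 1 of them was among the tallest of the series. The region at chr6:45413306-45414036 had 254 fragments in replicate 1 and 270 in replicate 2, more than any RUNX1 region. It ranked 5 of 25602 by mean −log10 p, 90 by the sum of fragments and 38 by mean fold. Its fold was 71.7 in replicate 1 and 43.4 in replicate 2, or 57.6 ± 20.0 (SD, n = 2), the widest spread of any member. The background was 2.3 in replicate 1 and 4 in replicate 2. The ratio of fragments, replicate 2 over replicate 1, was 1.06. At least 254 fragments were seen at 88 regions (0.344%) in replicate 1, and at least 270 at 115 (0.449%) in replicate 2.

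The other RUNX2 regions lay at higher coordinates, along the direction of transcription. The region at chr6:45492065-45492955 had folds of 19.6 and 25.1 and 46 and 84 fragments, and chr6:45575464-45576498 had 17.8 and 23.2 and 71 and 100 fragments. The weakest, chr6:45599132-45599515, had 13.1 and 14.4 (39 and 42 fragments) and lay within 1 kb of the edge of the window. Neighbouring regions were 79.0, 83.4 and 23.2 kb apart, and all 4 met the stricter IDR of 0.01. Below the strongest region, summits were called but none entered the IDR table. The most uneven of them lay at 45339350 in replicate 1 and 45339359 in replicate 2: its fold was 6.04 from 25 fragments over a background of 3 in replicate 1, and 21.9 from 66 fragments over 1.45 in replicate 2. A further summit of replicate 2, at 45339827, had a fold of 13.01 and 48 fragments, and the nearest summit of replicate 1 was 477 bp away. At 45267012, the first summit of the window in replicate 2, the fold was 12.9 from 38 fragments, and replicate 1 had no summit within 57 kb.

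**Figure D3:**
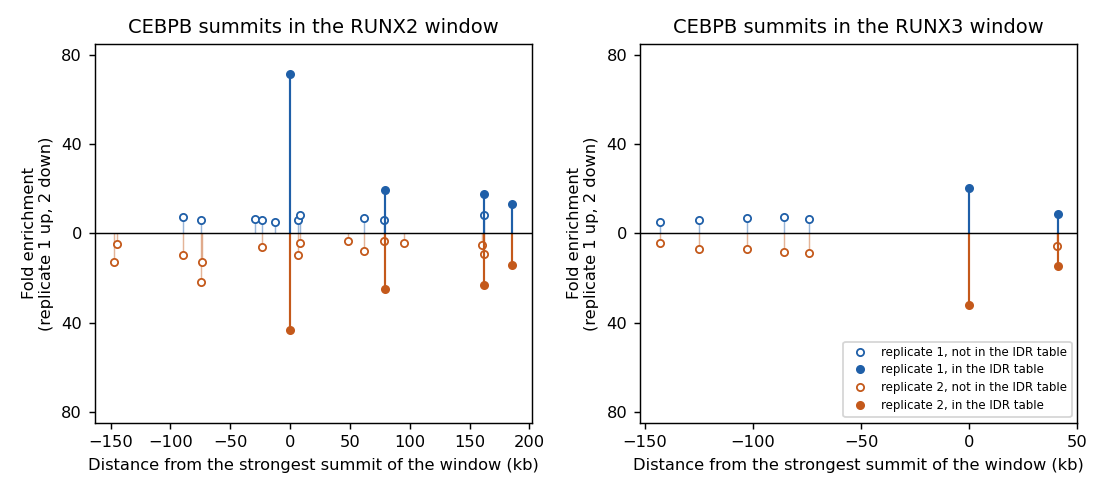
CEBPB summits in the RUNX2 window (left) and the RUNX3 window (right), by distance in kb from the strongest summit of each window, with fold enrichment upwards for replicate 1 and downwards for replicate 2. Filled points are in the IDR table; the strongest RUNX2 site has folds of 71.7 and 43.4 and the strongest RUNX3 site 20.2 and 32.0.

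RUNX3 had the fewest reproducible regions, and its strongest was lower in mean fold than the strongest of the RUNX1 and RUNX2 windows. The stronger, chr1:25293183-25293565, had 108 fragments in replicate 1 and 120 in replicate 2, with summits 1 bp apart. Its folds of 20.2 and 32.0 (26.1 ± 8.35, SD, n = 2) rested on backgrounds of 4 and 2.03, and it ranked 4266 of all regions by mean fold and 5282 by fragments. Above it, at chr1:25333918-25334623 and 41.0 kb away, the other region had folds of 8.72 and 14.8, from 46 and 69 fragments, with an IDR of 0.0257. The remaining summits were shared but low. All 7 summits of replicate 1 had a summit of replicate 2 within 100 bp, and 7 of 8 the other way round. The 5 shared summits outside the IDR table had folds of 5.03 to 7.43 with 13 to 21 fragments in replicate 1, and 4.36 to 8.60 with 22 to 31 fragments in replicate 2. All of them lay at lower coordinates than the stronger region, and the exception in replicate 2 lay inside the weaker region at 25334053 (fold 5.45, 26 fragments).

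**Figure D4:**
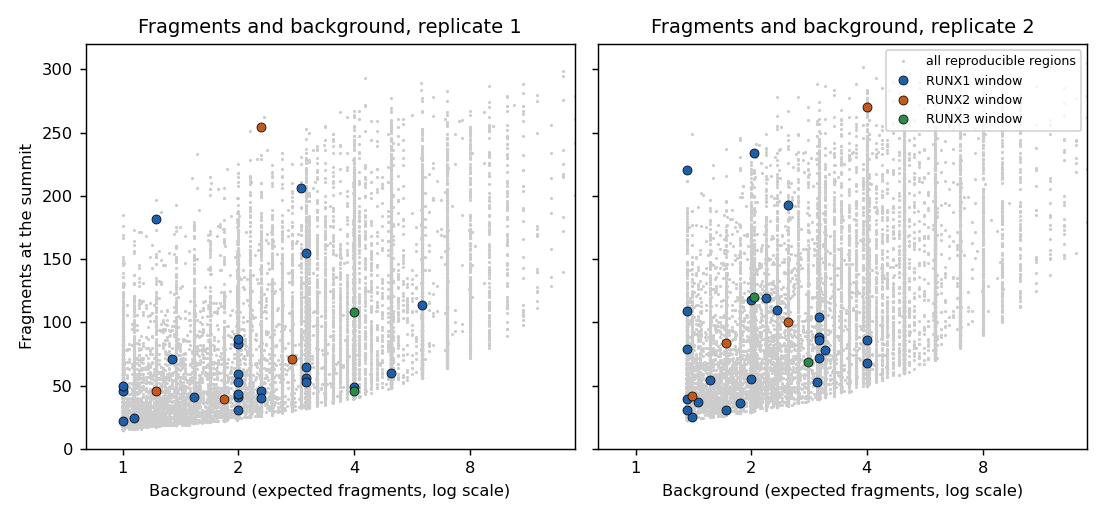
Fragments at the summit (y axis) against input background in expected fragments (x axis, log scale, drawn up to 15) for all 25602 reproducible regions (grey) and the members of the RUNX1, RUNX2 and RUNX3 windows (coloured), by replicate. The RUNX1 upstream site (182 and 220 fragments) has a background of 1.22 in replicate 1. In replicate 2 it has the lowest background of the panel, 1.36, a floor that other regions share. The strongest RUNX2 site (254 and 270) is the tallest member in both.

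Most summits of the RUNX windows were shared between the lists. In the RUNX1 window, 41 of 53 summits of replicate 1 (77.4%, 95% exact binomial interval 63.8 to 87.7%) had a partner within 100 bp, against 79.0% of all summits. For replicate 2 it was 41 of 58 (70.7%, 57.3 to 81.9%), against 61.0%. The RUNX2 window had 12 of 14 and 12 of 18. Summits of the RUNX1 window without a partner were low: their median was 17.5 fragments in replicate 1 and 13 in replicate 2, where partnered ones had 41 and 47. The same held over all chromosomes, with medians of 15 and 19 without a partner and 29 and 41 with one. In replicate 1 the tallest unpartnered ones had 22 fragments each: the summit at 36368801 fell inside a reproducible region, next to a summit with a partner, and the summit at 36509325 was not in the IDR table and lay 8997 bp from the nearest summit of replicate 2. In replicate 2 the tallest, at 36590142 (40 fragments), fell inside a reproducible region. In the RUNX2 window the tallest such summits had 13 fragments, at 45384599 in replicate 1, and 48 in replicate 2, at 45339827.

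The fragments of the replicates were then compared region by region. The ChIP coverage of replicate 2 was estimated as 1.57 times that of replicate 1. The estimate divides the background floor of each list by the scale of its fragments (given under processing), and read depth itself is unknown. Replicate 2 had more fragments at 19 of 24 RUNX1 regions, 4 of 4 RUNX2 regions and 2 of 2 RUNX3 regions. The same was seen at 21959 of all 25602 regions, so the members were like the rest. The median ratio over the 30 regions was 1.27, beside 1.29 over all regions. Each region's split of fragments between the libraries was tested against the median split among regions of similar total (two-sided exact binomial test, Benjamini-Hochberg adjustment over all 25602 regions). This called 2.92% of all regions, of which those tilted to replicate 2 made 1.22% and those tilted to replicate 1 made 1.70% of all regions. Of the 30 members 1 was called, a share near that of all regions. An unadjusted p below 0.05 was reached by 6 of the 30, 4 of them towards replicate 1, and by 16.5% of all regions. The called region, chr21:36570116-36570710, had 53 fragments in replicate 1 and 37 in replicate 2, a ratio of 0.698 where regions of its height had 1.39 (exact binomial test, adjusted p = 0.0460). Its folds were nevertheless alike, 12.53 and 12.48, over backgrounds of 3 and 1.45. The call was lost, with an adjusted p of 0.0557, when the two-sided p was taken as the doubled smaller tail, an alternative chosen after seeing the data. The test compares 2 libraries and covers counting error only.

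**Figure D5:**
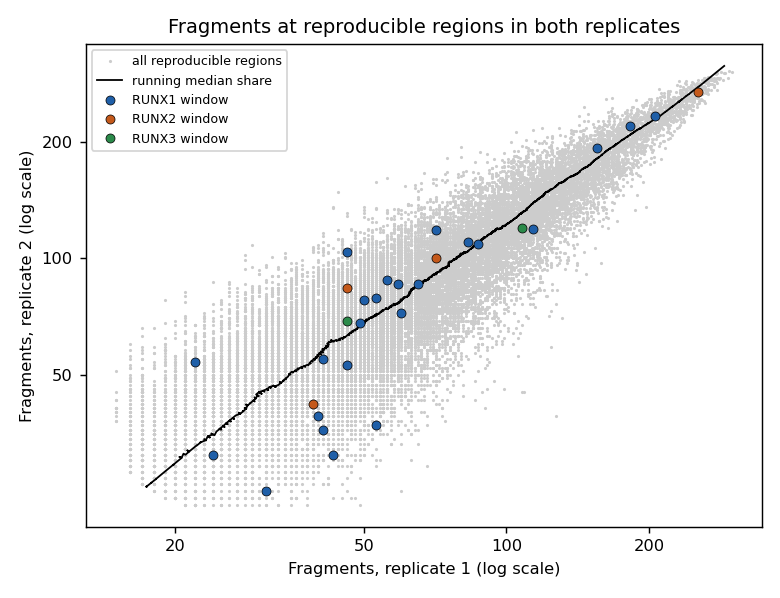
Fragments at each reproducible region in replicate 1 (x axis) and replicate 2 (y axis), both on log scales, for all 25602 regions (grey) and the members of the RUNX windows (coloured); the black line is the running median share. Members lie on both sides of the line, and the called RUNX1 region is the point at 53 and 37.

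Over the 24 RUNX1 regions the folds of the replicates had a Spearman rho of 0.762 and a Pearson r of 0.881 on the log2 scale. Over all 25602 regions these were 0.607 and 0.636. The correlations run across sites of the same 2 libraries and describe how far the ranks and the log2 folds matched. All of these regions had passed the IDR threshold, which favours sites whose ranks match. The values therefore do not measure the match over all summits. The window was chosen with its strongest region known, and that region was high in both replicates. The RUNX1 values are therefore not a test against those of all regions. Fold was higher in replicate 1 at 11 and in replicate 2 at 13 of the RUNX1 regions, beside 11631 and 13971 of all regions. Each fold was taken over a background estimated separately for each library.

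The edges of the windows were arbitrary, and a strong site lay just outside 1 of them. At the low edge of the RUNX1 window, the first summits inside were at 36168204 in replicate 1 and 36168213 in replicate 2 (folds 15.3 and 13.96, 65 and 86 fragments). The nearest outside were at 36147238 and 36147235, 2.76 and 2.77 kb from the edge, with folds of 45.8 and 45.7 and with 98 and 154 fragments, in the IDR table. At the high edge the nearest outside had folds of 8.78 and 6.53. The first summits in the RUNX2 window were at 45324219 in replicate 1 (fold 7.44) and 45267012 in replicate 2. Beyond that window the nearest summits had folds of 11.1 and 9.07 below and 4.18 and 6.85 above. Beyond the RUNX3 window they had 15.9 and 5.10 below, at 25112895 and 25149592, and 8.82 and 17.1 above, at 25407207 and 25407191 and within 7.21 kb of the edge. Widening each window by 10 kb changed the counts of regions from 24 to 26 for RUNX1 and from 2 to 3 for RUNX3, and left RUNX2 at 4.

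Genes of RUNX cofactors were looked at for comparison, in windows of 0.15 to 0.25 Mb placed by general knowledge of hg19. Here too, a region in a window is not assigned to the gene that names it. The window of CBFB, the obligate partner of all RUNX proteins, had 1 reproducible region, at chr16:67030416-67030652, with a mean fold of 10.8. Among the Groucho family corepressors that RUNX proteins recruit, TLE1 had 5 regions (25 per Mb, interval 8.12 to 58.3) with mean folds of 14.3 to 22.97, TLE4 had 3, the strongest at 16.8, and TLE3 had 1 at 14.6. Of the ETO family corepressors, CBFA2T2 had 2 regions, up to a mean fold of 15.05, and CBFA2T3 had 0 with a single summit in each list (folds 4.96 and 2.92). None of these 12 regions reached the top 10% of all regions (a mean fold of 30.4). In the RUNX1 window 4 of 24 did, in the RUNX2 window 1 of 4 and in the RUNX3 window 0 of 2. The RUNX1 window was chosen with its top region known and the counts are small, so a difference from the cofactor windows was not tested.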

How the data were processed

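Peaks of the 2 CEBPB samples were called by the authors for each sample against input, per the file headers. The submitters' processing notes name Bowtie2 2.3.4, SAMtools 1.9, MACS2 2.1.2, bedtools 2.25.0 and build hg19, with no settings. The deposited values used are the fold enrichment (a ratio of pileup to background), the −log10 p and q values, and a score derived from q. The sources used here do not name the tool behind the authors' deposited IDR table, and 2 value columns per sample in it were not used. Of its 27544 entries, 27544 matched a summit in both lists by interval and summit offset, and entries with the same interval were merged.

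Fragments and background at each summit were solved from fold and −log10 p with the pseudocount of 1 that MACS2 adds. With it, 100% of summits gave whole fragments within 0.005 of the deposited −log10 p. The solution includes a scale by which fragments are multiplied before the fold is taken, found as 0.927 in replicate 1 and 0.800 in replicate 2. Fragments are printed unscaled, and background is in scaled units. The plain ratio of the printed values is therefore not the fold. Libraries were amplified by 18 PCR cycles without molecular identifiers being named, so intervals and tests cover counting error only. Read depth is unknown. Total summits were 80530 and 104307, with a median of 24 and 28 fragments. Positions are 1-based. Computation used Python 3.11.15, NumPy 2.4.6, SciPy 1.17.1 and pandas 2.3.3, with chromosome lengths from circlize 0.4.16, and was tested on simulated data. Inputs contribute only to the background of the peak calls. Values are given for the 10 strongest regions of RUNX1, up to 5 of RUNX2 and of RUNX3, the weakest of each, called regions, the tallest unpartnered summits and the summits at the window edges. The members, windows and gene lists were chosen with earlier results of these data known. Alternatives were IDR thresholds, partner distances, q thresholds, the running window and leaving out each replicate.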

Additional observations from a re-analysis of the deposited data

How the results depend on the processing

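No paired analysis was possible because input samples have no peak list of their own to set beside the ChIP samples. At an IDR of at most 0.01 the reproducible regions were 14 for RUNX1 and 1 for RUNX3, the RUNX2 density became 1.96 times that of all chromosomes, and 0 members were called different (370 of 15504 regions were). The member called at the wider threshold had an IDR of 0.0116 and was left out by this filter before the test. Counting summit pairs within 100 bp in place of IDR regions gave 41, 12 and 7 for RUNX1, RUNX2 and RUNX3. A single list has no IDR, so leaving out each replicate in turn counted the distinct peak intervals of the other list at a −log10 q of at least 5: 43 to 44 for RUNX1, 11 to 13 for RUNX2 and 7 to 7 for RUNX3. These intervals gave a RUNX1 density of 1.9 times that of all chromosomes without replicate 1 and 2.52 times without replicate 2. By the fold of 1 replicate, the rank of the RUNX1 upstream site was 2 without replicate 1 and 10 without replicate 2. That rank was 38 by mean −log10 p and 848 by fragments. With the doubled smaller tail, chosen after seeing the data, 0 members were called (650 regions in all). Apart from that filter, the cause of these shifts was not tested. The other 41 recomputed values were within 1.5 times the reported count or ratio, inside the interval of the reported share, or, for the rank, within the spread of the replicates' ranks. With 2 libraries an SD rests on 2 values, and counts of 4 and 2 regions cannot show a density that differs from the average by less than their intervals.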
